A study of Mus musculus with 9 samples.

Results

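The genes described here are 31 genes of cholesterol and fatty acid synthesis that sterol regulatory element-binding proteins (SREBPs) are known to control. They were taken by symbol from a written list whose rule names no measured value, but which was chosen with earlier results of these data known. Of these symbols, 31 of 31 matched 1 Ensembl gene among the 52636 in the count table. All 31 passed the filter on low counts. The list holds 5 genes that lead from acetyl-CoA to the isoprenoid units, 5 that lead on to lanosterol, 8 that turn lanosterol into cholesterol, 5 regulators and transporters, and 8 genes of fatty acid synthesis, elongation and desaturation.

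They were followed in mouse embryonic stem cells (ESC), in 9 RNA libraries, 3 per line. The Nanog-null line is titled NanogKO (44C6), with the genotype N{delta}. The Esrrb line, titled NanogKO:Esrrb (44J), shares its genotype label N{delta}:cE:iN with the Esrrb+Nanog line, which has the title NanogKO:Esrrb:Nanog (44JN), so the titles alone separate them. All the libraries share the loss of Nanog in their titles, culture in serum with leukaemia inhibitory factor, no treatment, and a sort for PECAM-positive, PDGFRA-negative cells. Each group is 1 line, so added genes and differences between lines cannot be told apart. Whether replicates came from separate cultures is not in the labels, so the spread behind each p-value is that of these libraries and may be technical. In bulk RNA, fewer cells that express a gene and less of its RNA per cell cannot be told apart.

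SREBPs are transcription factors made as precursors in the membrane of the endoplasmic reticulum, where SCAP escorts them and INSIG proteins retain them while sterols are plentiful. When sterols run low, SCAP carries the precursor to the Golgi, proteases release the active part, and it switches on the enzymes of sterol and fatty acid synthesis. SREBP2, from Srebf2, acts mainly on sterol genes, and SREBP1, from Srebf1, mainly on fatty acid genes. Insig1 is itself a target, so it closes a feedback loop.

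Library totals ran from 21808120 to 32496267 counts. Nanog was at 14.3, 14.3 and 16.0 CPM (Nanog-null), 29.7, 35.1 and 30.4 CPM (Esrrb) and 221, 289.5 and 333 CPM (Esrrb+Nanog). It was thus highest where the title adds it, but it was also called 2.13-fold higher in the Esrrb line, whose title does not, than in the Nanog-null line (adjusted p = 5.92e-05). Esrrb was at 273, 253 and 303 CPM (Nanog-null), 769, 949 and 692 CPM (Esrrb) and 1113, 1151 and 1056 CPM (Esrrb+Nanog), so both lines that add it lay above the Nanog-null line and did not overlap each other. CPM is the usual depth-scaled count, taken here over tested genes with trimmed mean of M values factors. Of 6 defining embryonic stem cell genes, none had 0 counts, and their summed level was 3359 to 3545 CPM (Nanog-null), 3817 to 4017 CPM (Esrrb) and 3381 to 3635 CPM (Esrrb+Nanog). Markers of other cells differed between lines. The 7 trophoblast markers summed to 55.2 to 197 CPM in the Nanog-null libraries, 21.9 to 26.5 in the Esrrb libraries and 29.4 to 36.8 in the Esrrb+Nanog libraries, and 7 primitive endoderm markers to 11.5 to 35.9, 27.5 to 62.9 and 13.8 to 22.2 CPM. The 7 fibroblast markers summed to 14.7 to 85.0, 7.53 to 14.0 and 7.94 to 14.4 CPM, and 6 visceral endoderm markers to at most 4.97 CPM in any library. Of the defining markers, Apoa4 was at 0 in all 9 libraries, and Postn in all 6 libraries of the Esrrb and Esrrb+Nanog lines. Nanog-null replicate 2 held the highest trophoblast, primitive endoderm and fibroblast sums of its line. Of the markers tested, 5 of 6 for trophoblast and 4 of 5 for fibroblasts were lower in the Esrrb line than in the Nanog-null line, and 3 of 6 for primitive endoderm were higher, where 24.2% of all tested genes were called lower and 24.2% higher. In the other direction, 1 fibroblast marker was called higher and 1 primitive endoderm marker lower, and no trophoblast marker was called higher. Of the sort genes, Pecam1 lay at 93.5 to 110.5, 52.0 to 68.6 and 46.4 to 54.2 CPM in the same order of lines, and Pdgfra at 0.463 to 4.43, 5.84 to 14.1 and 1.77 to 3.86 CPM. The part of these cells in the results below was not tested.

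Promoters of some of these genes are shown as examples, and each one shown holds a CCAAT box, so they do not stand for the whole list. Acaca, called lower in every comparison, had none of the motifs sought in its window, which lies inside its gene. Dhcr7 and Pmvk also had windows and are not shown. Each line gives the bases before the start site, 5′ to 3′ on the strand of the gene, from RefSeq (GRCm38.p6, the mm10 build), with bases inside the GENCODE gene left out. Capitals mark CCAAT or its reverse ATTGG (the NF-Y box, a usual partner of SREBP sites), CACGTG (the E-box, which SREBP1 can bind) and TCACNCCAC (a short sterol response element).
Hmgcs1, chr13:119690101-119690350, plus strand: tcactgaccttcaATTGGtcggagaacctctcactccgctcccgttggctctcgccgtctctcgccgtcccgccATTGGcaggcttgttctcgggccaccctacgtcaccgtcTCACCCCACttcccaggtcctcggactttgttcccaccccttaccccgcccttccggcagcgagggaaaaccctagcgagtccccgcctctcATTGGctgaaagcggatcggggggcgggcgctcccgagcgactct
Insig1, chr5:28071162-28071362, plus strand: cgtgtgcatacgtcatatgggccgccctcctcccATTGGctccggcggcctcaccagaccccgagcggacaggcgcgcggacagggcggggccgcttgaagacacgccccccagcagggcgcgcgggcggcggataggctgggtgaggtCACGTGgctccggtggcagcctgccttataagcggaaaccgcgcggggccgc
Srebf2, chr15:82147019-82147180, plus strand: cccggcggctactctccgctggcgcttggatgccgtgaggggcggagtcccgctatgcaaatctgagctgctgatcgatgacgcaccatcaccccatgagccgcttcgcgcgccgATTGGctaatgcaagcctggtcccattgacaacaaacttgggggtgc
Sc5d, chr9:42264301-42264550, minus strand: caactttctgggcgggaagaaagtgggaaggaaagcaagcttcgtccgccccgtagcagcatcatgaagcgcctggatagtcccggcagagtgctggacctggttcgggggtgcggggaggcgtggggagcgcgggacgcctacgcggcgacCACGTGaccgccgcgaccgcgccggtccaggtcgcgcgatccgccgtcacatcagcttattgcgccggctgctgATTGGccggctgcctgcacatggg
Mvk, chr5:114444019-114444268, plus strand: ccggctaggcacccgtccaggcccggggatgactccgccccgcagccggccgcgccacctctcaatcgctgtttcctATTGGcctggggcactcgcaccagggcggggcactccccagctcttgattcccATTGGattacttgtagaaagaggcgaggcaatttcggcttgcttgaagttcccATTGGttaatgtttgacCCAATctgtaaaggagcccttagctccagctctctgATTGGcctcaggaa

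Promoter windows from 250 bases before to 50 after the start site were found for 24 of the 31 genes. Matches were sought on both strands, overlapping ones included. CCAAT was in a window of 19 of the 24 genes (79.2%), against 41.1% of 27025 genes in the RefSeq table, and in 37.4% of its 32851 windows. GGGCGG, the box of the Sp1 family and also a common partner, was in 20 of 24 (83.3%), against 38.2% of genes. CACGTG was in 5 of 24 (Dhcr7, Hsd17b7, Insig1, Sc5d and Scap), against 8.09% of genes, and TCACNCCAC in 1 of 24 (Hmgcs1), against 1.44%. The longer canonical sterol response element, which contains these letters, was in none of the 24, against 0.27% of genes. In Hmgcs1 that match begins 137 bases before the RefSeq start and CCAAT boxes begin 237, 176 and 45 bases before it. The Mvk window shows 5 CCAAT boxes, the most among the sequences above, and the Srebf2 stretch shows 1. TCAAGGTCA, the element of estrogen-related receptors such as ESRRB, was in none of the 24, against 0.466% of genes. These are matches of letters and not binding sites. Set beside the changes, 9 of the 11 members with a window that fell in the Esrrb line had a CCAAT box, as did 9 of the 12 that were not called.

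The first comparison asks how these genes differ where Nanog-null cells carry added Esrrb. In the Esrrb line 15 of the 31 genes fell and 1 rose, by edgeR's quasi-likelihood test at an adjusted p of 0.05, and 15 were not called. Over all 16198 genes tested, 48.5% were called, 24.2% higher and 24.2% lower, so the share of members called was near the background while the split by direction was not even. The falls lay along the sterol pathway from Hmgcs1 to Dhcr7, in its regulators Srebf2 and Insig1, and in the desaturases, with the largest change in Scd1. The median log2 change of the 31 genes was -0.30, against 0.01 over all tested genes. Of the 16 called members 7 changed by more than 1.5-fold, against 4291 of the 7849 genes called among all tested. The libraries of the 2 lines did not overlap for 16 members lower and 2 higher in the Esrrb line, against 29% and 29.4% of all tested genes. The summed level of all 31 genes was 3726, 3953 and 3862 CPM (Nanog-null), 3365, 3258 and 2988 CPM (Esrrb) and 2692, 3146 and 3271 CPM (Esrrb+Nanog).

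**Figure D1:**
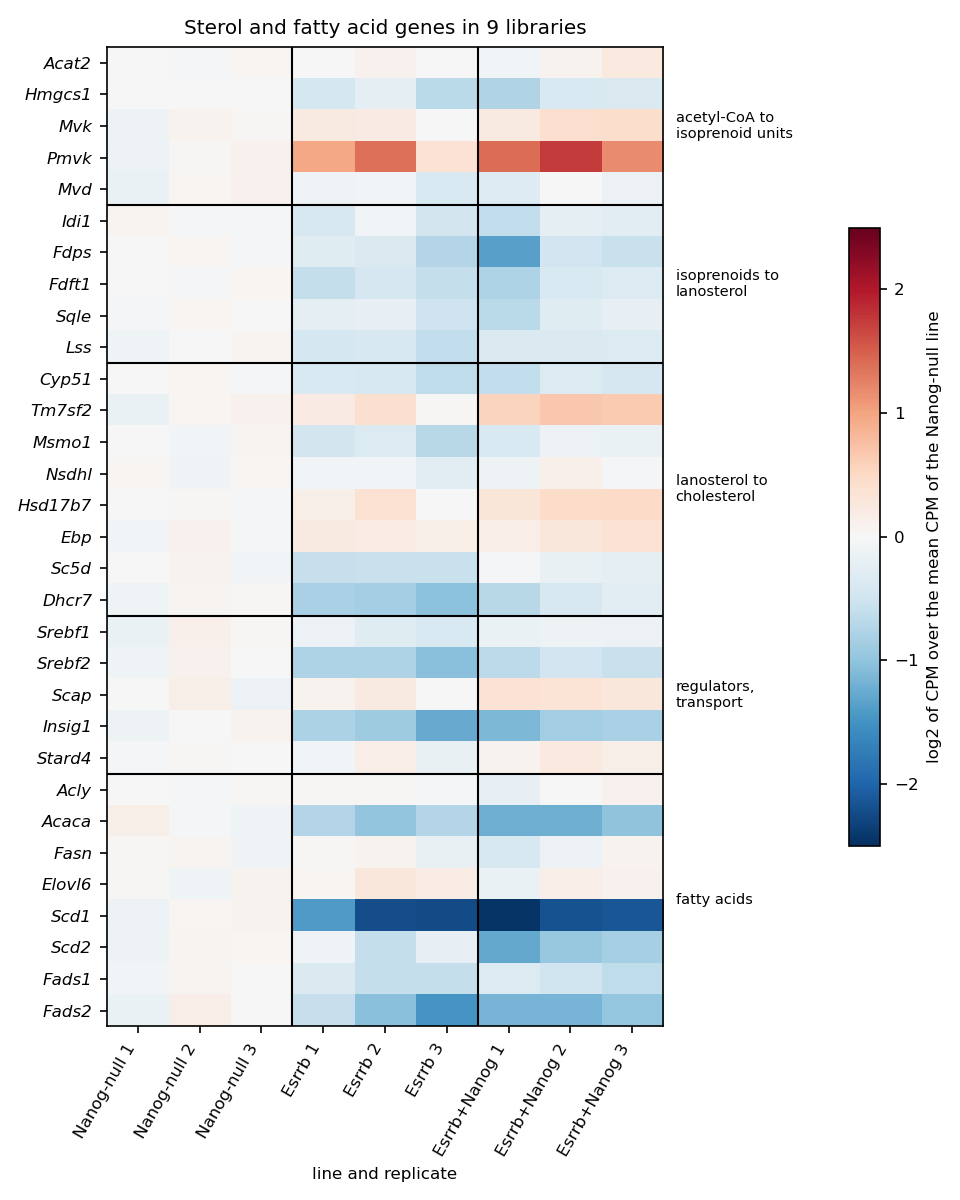
Heat map of the 31 genes (rows, grouped by role) in the 9 libraries (columns). Colour gives the log2 of a library's CPM over the mean CPM of the 3 Nanog-null libraries. Scd1 is the darkest blue row in both other lines, Pmvk the darkest red, and 15 of 31 rows passed the test as lower in the Esrrb line.

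Within lines, most members were low in the same library. In Esrrb replicate 3, 25 of the 31 genes were below both other Esrrb libraries and none was above both, with a median log2 ratio of -0.23 to their mean. In Esrrb+Nanog replicate 1, 26 of 31 were below both others, with a median of -0.21. Nanog-null libraries stayed closer together, with medians of -0.04, 0.07 and 0.05. Without Esrrb replicate 3, 13 members fell and 1 rose in the first comparison, and without Esrrb+Nanog replicate 1, 18 fell and 1 rose. Without Nanog-null replicate 2, which had the most signal from markers of other cells, 13 fell and 1 rose.

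Of the 5 regulators and transporters, 3 fell in the Esrrb line and none rose. Srebf2 (ENSMUSG00000022463, mm10 chromosome 15, 82147181 to 82205379), which encodes SREBP2, was at 355, 413 and 386 CPM (Nanog-null), 226, 226 and 186 CPM (Esrrb) and 244, 275 and 262 CPM (Esrrb+Nanog). Every Nanog-null library lay above all others. The log2 change in the Esrrb line was -0.85 ± 0.09 (SE, adjusted p = 1.13e-05). Insig1 (ENSMUSG00000045294, chromosome 5, 28071363 to 28078662), the retention factor and feedback target, was at 90.6, 99.8 and 105 CPM (Nanog-null), 56.6, 53.3 and 41.0 CPM (Esrrb), and 45.2, 54.0 and 56.4 CPM (Esrrb+Nanog). Both other lines were low and overlapped each other. Its log2 change in the Esrrb line was -0.97 ± 0.12 (SE, adjusted p = 4.59e-05), a level 1.96-fold lower.

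Srebf1, which encodes SREBP1, was at 92.8, 114 and 108 CPM (Nanog-null), 94.8, 85.0 and 80.4 CPM (Esrrb) and 93.7, 95.5 and 94.5 CPM (Esrrb+Nanog). The groups overlapped, and the call in the Esrrb line was weak (a log2 change of -0.27 ± 0.08, adjusted p = 0.0162). It ended without Nanog-null replicate 2 (adjusted p = 0.0625) or Esrrb replicate 3 (0.0629). These were the highest values over its alternatives, apart from the block fit described in the last section, and the lowest was 0.00264. Scap, the escort, was at 41.6, 46.4 and 37.9 CPM (Nanog-null), 44.6, 49.0 and 41.7 CPM (Esrrb), and 54.1, 53.3 and 51.0 CPM (Esrrb+Nanog), where all libraries lay above the other 6. Stard4, a soluble carrier of sterol, was at 47.7, 49.5 and 48.6 CPM, then 46.6, 54.4 and 42.7, then 51.8, 57.2 and 53.4 CPM, in the same order of lines. It was not called in any comparison.

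**Figure D2:**
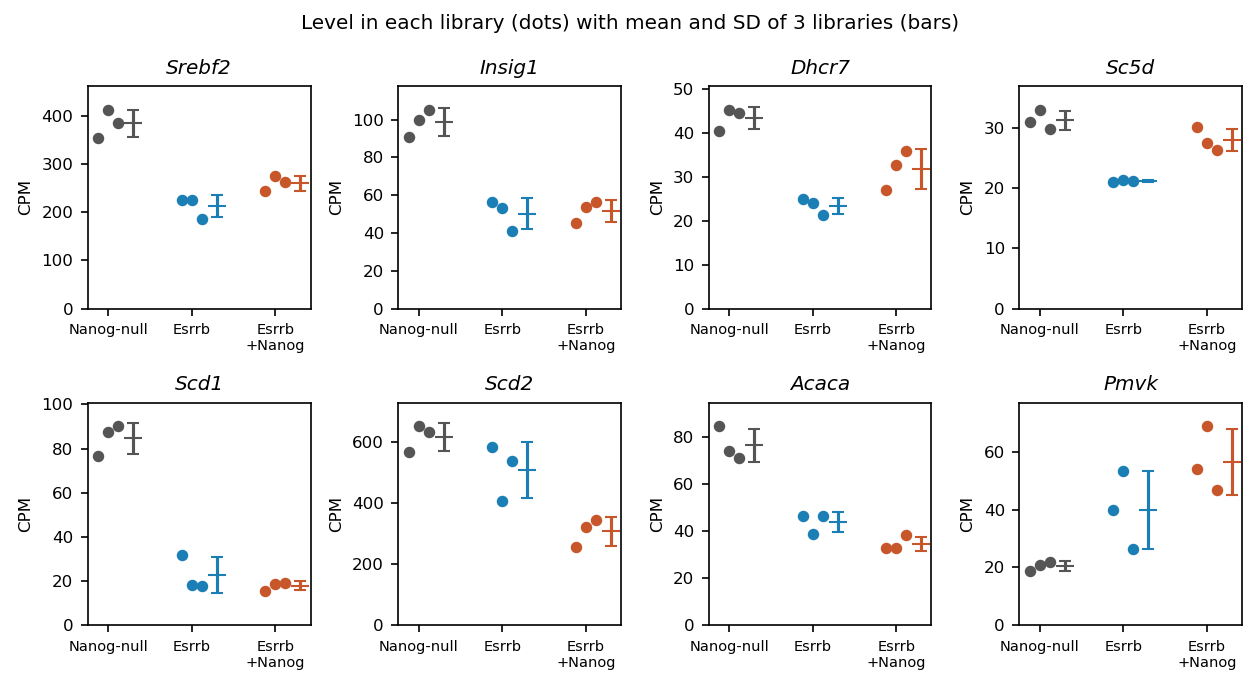
Level in CPM (linear axes from 0) of 8 members in each library, with 1 dot per library and a bar for the mean and SD of 3 libraries beside the dots. Srebf2, Insig1, Dhcr7 and Scd1 were lower in both other lines than in the Nanog-null line, Scd2 was lowest in the Esrrb+Nanog line, and Pmvk ran the other way.

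Among the first steps of the pathway, 1 of 5 genes fell in the Esrrb line and 1 rose. Hmgcs1, the synthase of hydroxymethylglutaryl-CoA, was at 195, 192 and 195 CPM (Nanog-null), 144, 166 and 122 CPM (Esrrb) and 116, 149 and 151 CPM (Esrrb+Nanog). Its log2 change in the Esrrb line was -0.43 ± 0.11 (SE, adjusted p = 0.00796), and the Nanog-null libraries lay above all others. Hmgcs1 was called under every alternative apart from the block fit described in the last section, which did not test the line difference alone. Pmvk, the second of the kinases that act on mevalonate, went the other way, with 18.6, 20.9 and 22.0 CPM (Nanog-null), 39.9, 53.3 and 26.5 CPM (Esrrb) and 53.9, 68.8 and 46.7 CPM (Esrrb+Nanog). It was the only member to rise in the Esrrb line, by 0.96 ± 0.21 log2 units (adjusted p = 0.00294), with a wide spread between Esrrb libraries. Mvk, the kinase before it, was at 23.4, 26.9 and 25.9 CPM, then 29.6, 29.2 and 25.5, then 29.8, 34.1 and 34.5 CPM, and was called only between the Esrrb+Nanog and Nanog-null lines. Mvd, the decarboxylase, was at 35.3, 41.3 and 42.8 CPM, then 37.6, 38.0 and 30.8, then 32.0, 40.3 and 35.7 CPM. Its lines overlapped, and so did those of Acat2, an acetyl-CoA thiolase at 49.4 ± 1.9, 50.2 ± 2.4 and 52.8 ± 5.7 CPM (SD, n = 3 per line). Neither was called. Acat2 matched its paralog Acat3 at up to 97.7% identity over 65.6% of its transcript, so the division of reads between them is uncertain.

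Of the 5 genes from isoprenoid units to lanosterol, 3 fell in the Esrrb line and none rose. Lss, which closes squalene epoxide into lanosterol, was at 84.3, 91.3 and 95.2 CPM (Nanog-null), 66.2, 68.6 and 58.9 CPM (Esrrb) and 69.9, 70.2 and 70.8 CPM (Esrrb+Nanog). Its log2 change was -0.48 ± 0.07 (SE, adjusted p = 0.00017). Fdft1, squalene synthase, was at 38.7, 37.1 and 39.7 CPM, then 25.4, 28.7 and 25.4, then 22.6, 29.4 and 30.3 CPM, a log2 change of -0.54 ± 0.11 in the Esrrb line (adjusted p = 0.00131). In both genes no library of another line reached the Nanog-null range. Other annotated genes matched 54.7% of the Fdft1 transcript at 95% identity or more, so its absolute level is uncertain.

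Sqle, the epoxidase that can limit the flow to sterols, was at 145, 154 and 148 CPM, then 126, 129.8 and 103, then 92.8, 121 and 129 CPM. The Nanog-null libraries lay above all others, but the call in the Esrrb line was near the threshold (log2 change -0.31 ± 0.11, adjusted p = 0.0392). Its adjusted p was 0.0893 without Nanog-null replicate 2, 0.0688 without Nanog-null replicate 3, 0.0583 without Esrrb replicate 1, 0.143 without Esrrb replicate 3 and 0.0514 without Esrrb+Nanog replicate 2. Over all its alternatives it ran from 0.000265 to 0.48, and the 0.48 came from the block fit described in the last section. Apart from that fit the highest was 0.143. Fdps, which builds farnesyl diphosphate, was at 5.75, 6.01 and 5.62 CPM, then 4.70, 4.53 and 3.50, then 2.25, 4.18 and 3.96 CPM. Its low level is uncertain, because 91.4% of its transcript matched other annotated genes at 95% identity or more, among them an overlapping gene on the same strand and several processed pseudogenes. Idi1, the isomerase of isoprenoid units, was at 14.5 ± 0.57, 11.8 ± 1.8 and 11.3 ± 1.6 CPM (SD, n = 3 per line), and neither Idi1 nor Fdps was called in the Esrrb line, though both were called without Esrrb+Nanog replicate 1 (log2 changes of -0.32 and -0.46, adjusted p = 0.038 and 0.0225). Idi1 was also called without Esrrb replicate 2 (log2 change -0.43, adjusted p = 0.019). The lowest adjusted p over their alternatives was 0.019 for Idi1 and 0.0225 for Fdps. Other annotated genes also matched 33.3% of the Idi1 transcript at 95% identity or more.

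Of the 8 genes that turn lanosterol into cholesterol, 4 fell in the Esrrb line and none rose. Dhcr7, the reductase that makes cholesterol from 7-dehydrocholesterol, was at 40.4, 45.2 and 44.4 CPM (Nanog-null), 24.8, 24.1 and 21.4 CPM (Esrrb) and 26.8, 32.7 and 35.7 CPM (Esrrb+Nanog). The 3 lines did not overlap, and the log2 change in the Esrrb line was -0.89 ± 0.11 (SE, adjusted p = 3.95e-05). Sc5d, the desaturase just before it, was at 31.003, 33.0 and 29.8 CPM, then 21.0, 21.4 and 21.3, then 30.1, 27.5 and 26.4 CPM, a log2 change of -0.56 ± 0.08 in the Esrrb line (adjusted p = 0.000117). Here the Esrrb libraries were tightly grouped and low, and the other lines overlapped. Cyp51, the lanosterol demethylase, was at 85.7, 89.2 and 82.9 CPM, then 66.1, 65.4 and 55.3, then 55.9, 68.1 and 64.2 CPM, with a log2 change of -0.46 ± 0.09 in the Esrrb line (adjusted p = 0.00105). Both lines with added genes sat below the Nanog-null range.

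The methyl sterol oxidase gene Msmo1 also fell, from 57.8 ± 2.5 to 41.1 ± 4.8 CPM (SD, n = 3 per line). Tm7sf2, a sterol reductase, was at 9.13, 10.6 and 11.1 CPM (Nanog-null), 11.9, 13.5 and 10.5 CPM (Esrrb) and 15.1, 16.4 and 16.2 CPM (Esrrb+Nanog), where every library lay above the other 6. Hsd17b7, the ketosterol reductase, Ebp, the sterol isomerase, and Nsdhl, a decarboxylating dehydrogenase, were not called in the Esrrb line, with log2 changes of 0.19, 0.18 and -0.14. None of these 3 was called between the Esrrb+Nanog and Esrrb lines either.

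Among the 8 fatty acid genes, 4 fell in the Esrrb line and none rose, and the desaturases held the largest change of the whole list. Scd1 (ENSMUSG00000037071, chromosome 19, 44394455 to 44407879), which puts the first double bond into saturated fatty acids, was at 76.7, 87.3 and 90.1 CPM (Nanog-null), 31.9, 18.2 and 17.9 CPM (Esrrb) and 15.4, 18.7 and 19.2 CPM (Esrrb+Nanog). It was 3.74-fold lower in the Esrrb line (log2 change -1.90, SE 0.19, adjusted p = 9.63e-06). Esrrb replicate 1 was the highest of its line, and every Nanog-null library lay above it. The paralog Scd2 (ENSMUSG00000025203, chromosome 19, 44293674 to 44306864) was at 566, 651 and 634 CPM (Nanog-null) and 584, 406 and 537 CPM (Esrrb), which overlapped, and at 255, 320.1 and 345 CPM (Esrrb+Nanog), which were below all others. Scd2 was not called in the Esrrb line (a log2 change of -0.28 ± 0.13, adjusted p = 0.104). It was called there without Esrrb replicate 1 (log2 change -0.39, adjusted p = 0.0486) or Esrrb+Nanog replicate 1 (-0.29, adjusted p = 0.0478). Its adjusted p ran from 0.000299 to 0.358 over its alternatives, the block fit included. A transcript of Scd1 matched 11.4% of the Scd2 transcript at up to 95.5% identity, so a small share of reads may be hard to assign.

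Acaca, the carboxylase that commits acetyl-CoA to fatty acids, was at 84.6, 74.0 and 71.2 CPM (Nanog-null), 46.4, 38.8 and 46.3 CPM (Esrrb) and 32.7, 32.7 and 38.2 CPM (Esrrb+Nanog). The 3 lines formed 3 steps with no overlap, and the log2 change in the Esrrb line was -0.81 ± 0.10 (SE, adjusted p = 4.11e-05). A processed pseudogene matched 64.3% of its transcript at up to 99.2% identity, which makes its absolute level uncertain. Fads2, the desaturase that starts the path to polyunsaturated fatty acids, was at 31.2, 39.4 and 35.03 CPM, then 23.6, 17.1 and 12.8, then 15.8, 15.7 and 18.1 CPM, a log2 change of -0.98 ± 0.18 in the Esrrb line (adjusted p = 0.000736). Its partner desaturase Fads1 fell from 96.8 ± 4.5 to 68.0 ± 6.6 CPM (SD, n = 3 per line). By contrast, Acly, which makes cytosolic acetyl-CoA, was at 515 ± 9.6, 515 ± 16 and 508 ± 55 CPM across the lines, and Fasn, fatty acid synthase, at 670.0 ± 38, 661 ± 65 and 609.7 ± 99 CPM. Acly, Fasn and the elongase gene Elovl6 were called in no comparison.

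Levels can be set beside each other only per length, here as CPM per kb of merged annotated exons, which may exceed the length of the transcript in use. In the Nanog-null line Scd2 was highest at 113 ± 8.3 CPM per kb (SD, n = 3), followed by Acly at 97.6 ± 1.8, Fasn at 61.2 ± 3.4, Srebf2 at 53.5 ± 4.0 and Hmgcs1 at 42.2 ± 0.30. Scd1 stood at 17.3 ± 1.4 CPM per kb there and at 3.63 ± 0.42 in the Esrrb+Nanog line. In that line Scd2, at 56.2 ± 8.6 CPM per kb, lay beside Fasn at 55.7 ± 9.1, and these 2 levels did not differ beyond their spread. Acly led there at 96.1 ± 10 CPM per kb.

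The second comparison asks what differs where Nanog is added beside Esrrb. Both altered genes were higher in the Esrrb+Nanog line, Nanog by 8.85-fold (adjusted p = 2.79e-07) and Esrrb by 1.38-fold (adjusted p = 0.0133), so the contrast is not of Nanog alone. Between the Esrrb+Nanog and Esrrb lines 4 of the 31 genes rose (Sc5d, Dhcr7, Tm7sf2 and Srebf2) and 2 fell (Scd2 and Acaca), against 13.2% of all genes tested, 5.43% higher and 7.75% lower. All 4 that rose belong to sterol synthesis or its control, and both that fell belong to fatty acid synthesis. The median log2 change was 0.12 over the 23 sterol genes and -0.12 over the 8 fatty acid genes, against -0.01 over all tested genes. Libraries did not overlap for 7 members higher and 2 lower, against 14.9% and 16.7% of all tested genes. The changes were small. Sc5d rose by 0.40 ± 0.08 log2 units (SE, adjusted p = 0.00601), Dhcr7 by 0.44 ± 0.11 (adjusted p = 0.019), Tm7sf2 by 0.41 ± 0.12 (adjusted p = 0.0389) and Srebf2 by 0.29 ± 0.09 (adjusted p = 0.0448). Scd2 had a log2 change of -0.73 ± 0.13 (adjusted p = 0.00448) and Acaca of -0.34 ± 0.10 (adjusted p = 0.0401).

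Of these 6 calls, 4 were lost on leaving out 1 library or another. The members that rose numbered 2 without Nanog-null replicate 3 or Esrrb replicate 1, 1 without Esrrb replicate 3, Esrrb+Nanog replicate 2 or Esrrb+Nanog replicate 3, and 8 without Esrrb replicate 2, while the number that fell was 1 when any of Nanog-null replicates 2 and 3, Esrrb replicates 1 and 3, and Esrrb+Nanog replicates 1 and 2 was left out. Sc5d and Scd2 were called with any 1 library left out and under the other alternatives. The block fit is left aside here, since it did not test the line difference alone. Dhcr7 was not called without Esrrb replicate 3 (adjusted p = 0.0698), Esrrb+Nanog replicate 2 (0.0696) or Esrrb+Nanog replicate 3 (0.0735), within a range of 0.000274 to 0.0735 over its alternatives. Tm7sf2 was called on leaving out Nanog-null replicate 1, Nanog-null replicate 2 or Esrrb replicate 2, and on no other. Srebf2 was not called when Nanog-null replicate 3, either of Esrrb replicates 1 and 3, or one of Esrrb+Nanog replicates 2 and 3 was left out. Acaca was called only without Nanog-null replicate 1, Esrrb replicate 2 or Esrrb+Nanog replicate 3. With the block fit left aside, the adjusted p over the alternatives ran from 0.0168 to 0.13 for Tm7sf2. It ran from 0.00105 to 0.158 for Srebf2 and from 0.0037 to 0.149 for Acaca. Without Esrrb replicate 2, Pmvk, Msmo1, Hsd17b7 and Stard4 were also called higher, with log2 changes of 0.76, 0.33, 0.34 and 0.28. With library totals alone as the scale, 59.6% of all calls in this comparison were higher in place of 41.2%, the median of all genes was 0.06, and 5 members rose and 1 fell.

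The third comparison sets Esrrb+Nanog cells against Nanog-null cells. It shares libraries with both others and is given beside them. Of the 31 genes 15 fell and 6 rose, against 54.4% of all genes tested, 27.2% higher and 27.2% lower. Libraries did not overlap for 16 members lower and 7 higher, against 30.7% and 31.2% of all tested genes. The 6 that rose were Pmvk, Tm7sf2, Hsd17b7, Mvk, Scap and Ebp, by 1.46, 0.63, 0.41, 0.37, 0.33 and 0.27 on the log2 scale. Ebp, with an adjusted p of 0.0441, was the least certain of them: it was not called when Nanog-null replicate 1 or 3, either of Esrrb replicates 1 and 2, or one of Esrrb+Nanog replicates 2 and 3 was left out (adjusted p from 0.0505 to 0.151). The call of Ebp also ended with median-of-ratios factors (0.0513), DESeq2 (0.0626), no filter (0.17) and a fit of the 2 lines alone (0.0724). Its adjusted p ran from 0.0298 to 0.17 over the alternatives. All 5 genes from isoprenoid units to lanosterol fell, Lss by 0.36 ± 0.07 log2 units (SE, adjusted p = 0.00105) and Idi1 by 0.37 ± 0.13 (adjusted p = 0.0349). Idi1 was not called without any 1 of the 3 Nanog-null replicates (adjusted p = 0.0816, 0.058 and 0.0644) or without Esrrb+Nanog replicate 1 (0.116). Lss, Fdft1, Fdps and Sqle were called under every alternative apart from the block fit, which did not test the line difference alone.

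The largest falls in this comparison were in the fatty acid branch, where 5 of 8 genes fell and 4 of them by more than 2-fold. Over all 16198 tested genes, 3002 were called with a change of more than 2-fold in either direction. Scd1 was 4.77-fold lower (log2 change -2.25 ± 0.19, SE, adjusted p = 2.33e-06), Acaca 2.21-fold (-1.15 ± 0.10, adjusted p = 2.37e-06), Fads2 2.13-fold (-1.09 ± 0.18, adjusted p = 0.000291) and Scd2 2.01-fold (-1.01 ± 0.13, adjusted p = 6.69e-05). Fads1 had a log2 change of -0.48. Insig1 remained low at 1.90-fold below the Nanog-null line (log2 change -0.93 ± 0.12, adjusted p = 4.84e-05), while the log2 change of Srebf2 was -0.56 ± 0.09 (adjusted p = 0.000183). Set over all 3 comparisons, 9 members were lower in both other lines than in the Nanog-null line with no call between those lines, and 7 members were called in no comparison. These patterns were not counted over all tested genes, so whether such numbers are unusual is not known.

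**Figure D3:**
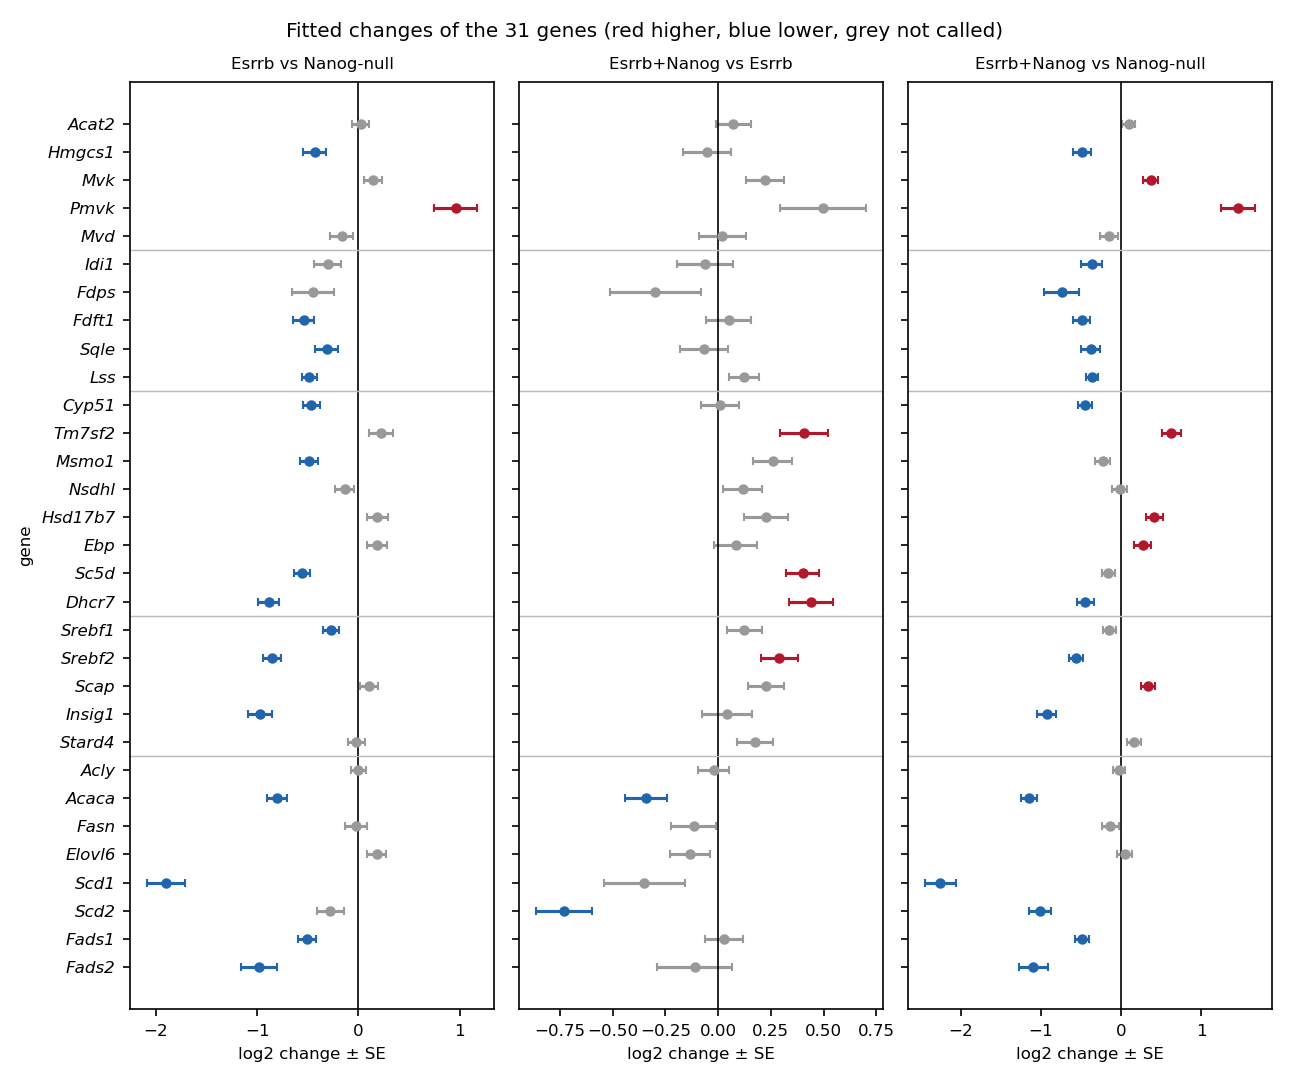
Fitted log2 changes with SE of the 31 genes in the 3 comparisons, 1 panel each, with its own scale. Red marks genes called higher, blue lower and grey not called. Counts of called genes are 1 higher and 15 lower, 4 higher and 2 lower, and 6 higher and 15 lower, and the outer panels share the Nanog-null libraries.

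Other genes of lipid metabolism were read from 6 lists of 67 genes that were written down as context, also with earlier results of these data known. Genes of fatty acid oxidation, which burn fatty acids in mitochondria, were mostly higher in the Esrrb line: 12 of 14 tested were higher and 2 lower, with a median log2 change of 0.58 against 0.01 over all tested genes, of which 24.2% were called higher and 24.2% lower. Between the Esrrb+Nanog and Nanog-null lines 11 were higher and 2 lower, against 27.2% each over all tested genes. Cpt1a, which controls entry of fatty acids into mitochondria, was at 68.7, 64.5 and 73.4 CPM (Nanog-null), 229, 239 and 225 CPM (Esrrb) and 219, 209 and 176 CPM (Esrrb+Nanog). It rose by 1.74 ± 0.08 log2 units (SE, adjusted p = 4.83e-08). Acaa2, the thiolase that ends each round, rose from 20.01 ± 0.40 CPM (SD, n = 3) to 61.0 ± 9.2 CPM (n = 3). Between the Esrrb+Nanog and Esrrb lines none of the 14 rose and 2 fell. These were Acadm, an acyl-CoA dehydrogenase, at 151 ± 7.3 and 119 ± 7.9 CPM, and Hadh, a hydroxyacyl-CoA dehydrogenase, at 133 ± 5.0 and 109.8 ± 2.0 CPM. Pparg was not tested because of low counts.

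**Figure D4:**
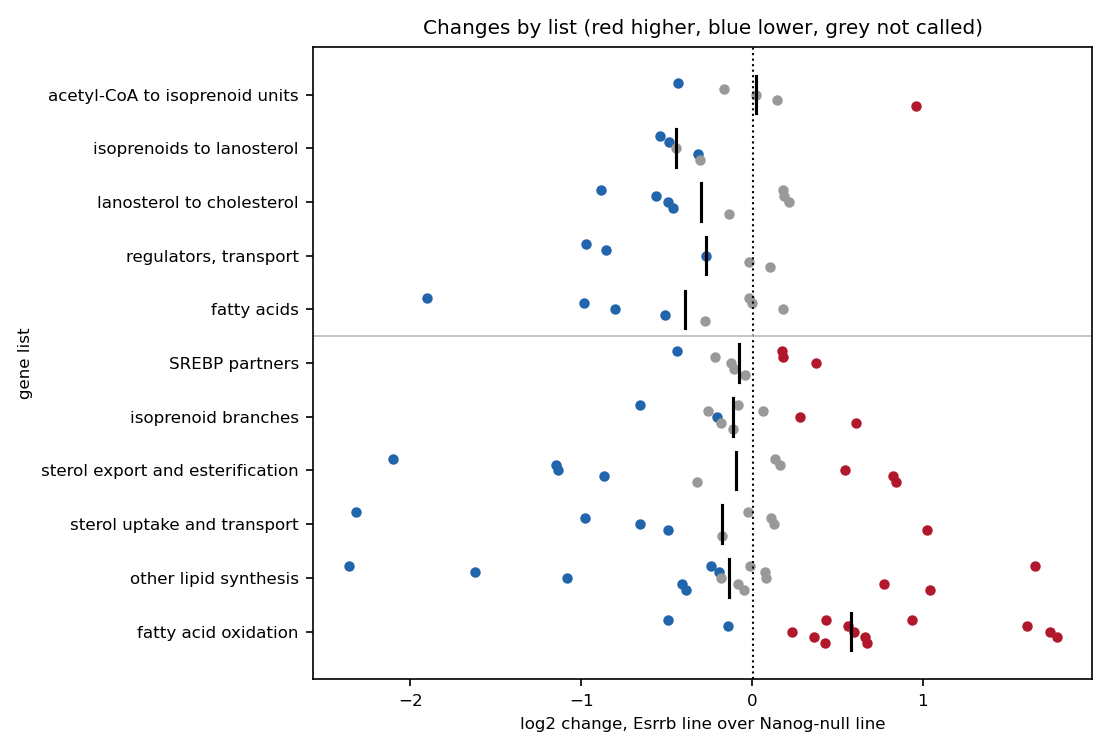
Log2 changes in the Esrrb line over the Nanog-null line for each gene of the 5 role lists (above the grey line) and the 6 context lists (below it), with 1 dot per tested gene, black bars for list medians and a dotted line for the median of all tested genes. Red is called higher, blue lower and grey not called. Fatty acid oxidation genes lie mostly to the right, and genes from isoprenoids to lanosterol all lie to the left.

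Of 16 other fatty acid and lipid synthesis genes, 3 were higher and 7 lower where Esrrb was added. Here and in the lists that follow, the share called is to be read against 48.5% of all tested genes in the first comparison and 13.2% in the second. Mid1ip1, an activator of acetyl-CoA carboxylase, fell from 65.0 ± 1.8 to 12.7 ± 2.6 CPM (SD, n = 3 per line; log2 change -2.36, adjusted p = 2.27e-07), the same direction as the carboxylase gene Acaca. It fell again to 6.89 ± 0.94 CPM in the Esrrb+Nanog line. Agpat2, an acyltransferase of glycerolipid synthesis, rose from 22.8 ± 0.84 to 72.0 ± 11 CPM. In the second comparison 4 of the 16 rose and 3 fell. The elongase gene Elovl5 was among those that rose, from 82.8 ± 3.4 to 107 ± 5.4 CPM.

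Sterol export and esterification genes moved both ways, with 3 of 10 higher and 4 lower in the Esrrb line. Abcg1, a sterol exporter, fell from 42.8 ± 1.9 to 10.0 ± 3.1 CPM (SD, n = 3 per line) and Soat1, which esterifies cholesterol for storage, from 135 ± 5.8 to 60.8 ± 15 CPM. Abca1, another exporter, rose from 21.4 ± 3.2 to 31.2 ± 5.1 CPM and on to 45.4 ± 8.7 CPM in the Esrrb+Nanog line. Soat2, the second esterifying enzyme, was at 2.74 ± 0.23, 4.86 ± 0.25 and 3.35 ± 0.41 CPM. In the second comparison Abca1 was the 1 of 10 that rose and Soat2 the 1 that fell.

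Of 9 genes of sterol uptake and transport inside the cell, 1 was higher and 4 lower in the Esrrb line, a share near the 48.5% of all tested genes. Star, which carries cholesterol into mitochondria, rose from 14.3 ± 1.0 CPM (SD, n = 3) to 29.1 ± 3.2 CPM (n = 3), and Npc1, which moves cholesterol out of lysosomes, fell from 76.9 ± 3.0 to 48.8 ± 3.9 CPM. The lipoprotein receptor gene Lrp8 was at 14.1 ± 2.3, 7.15 ± 1.2 and 10.5 ± 1.5 CPM, and was the 1 gene of the 9 called in the second comparison. Of 8 partners of SREBP trafficking and turnover, 3 were higher in the Esrrb line. Insig2, the paralog of Insig1, rose from 17.0 ± 1.2 to 22.1 ± 0.65 CPM while Insig1 fell. Mbtps2, a protease that releases SREBPs, was the 1 gene of the 8 called in the second comparison, at 60.4 ± 7.0 and 43.4 ± 6.8 CPM. Side branches that use isoprenoids gave 2 of 9 higher and 2 lower in the Esrrb line. Pdss1 and Coq2, which both act in ubiquinone synthesis, were at 19.6 ± 2.7 and 36.1 ± 0.62 CPM in the Nanog-null line and at 29.9 ± 1.0 and 22.9 ± 4.2 CPM in the Esrrb line. In the second comparison 1 of these 9 rose, Dhdds, a gene of dolichol synthesis, and 2 fell, with the farnesyltransferase subunit gene Fnta at 112 ± 3.3 and 92.7 ± 0.73 CPM.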

How the data were processed

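RNA of sorted cells was depleted of ribosomal RNA and made into libraries, per the labels' protocols. The submitters' processing notes name bcl2fastq 2.19.1, STAR 2.5.3a and build mm10 without their roles. How reads were assigned to genes, and whether by strand, is not given in the sources used here. Reads of overlapping genes therefore cannot be told apart. The deposited table gives raw counts for each Ensembl gene, from its whole-number values. The 9 columns that match the samples were used and 6 others were not. Symbols, positions and exon lengths came from GENCODE M21, with 52403 of 52636 IDs named.

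Counts were fitted in R 4.3.3 with edgeR 4.0.16: default low-count filter over the 3 lines (16198 genes), trimmed mean of M values factors, and a quasi-likelihood test of a model with 1 mean per line, fitted to the 9 libraries together. Adjusted p-values are Benjamini-Hochberg values across the tested genes, called at 0.05. The SE is the change divided by the square root of F. The code was first tested on simulated data.

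The members and lists were chosen with earlier results of these data known. Values in every library are given for the 4 members of each role with the smallest adjusted p and for all 5 regulators. From each context list, the 2 called genes with the smallest adjusted p in each of the first 2 comparisons are named, and Nanog and Esrrb; 1 result under this rule is not reported here. Near copies of members were sought with BLAST 2.17.0 at 95% identity over 100 bases or more. Alternatives were median-of-ratios factors, library totals alone, DESeq2 1.42.0, no filter, at least 5 CPM in 3 libraries, only the 2 lines compared, the replicate number as a block, and each library left out. The block fit did not test the line difference alone, as set out in the last section. Ranges over alternatives include it unless said otherwise. No table of protein sequences was used here. Replicates of a line differed by more than sampling noise.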

Additional observations from a re-analysis of the deposited data

How the results depend on the processing

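Of 1488 values of single members under alternatives, 1400 kept their direction and side of the threshold, 61 lost a call, 27 gained one and none reversed. In the first comparison 13 to 18 members fell and 1 rose with any 1 library left out, the median log2 change ran from -0.38 to -0.23, and 6654 to 8263 genes were called. In the third, 14 to 16 fell and 5 or 6 rose, and the median ran from -0.26 to -0.21. In the second, 1 to 8 rose and 1 or 2 fell, the median ran from 0.02 to 0.14 and 1105 to 2374 genes were called. There, 1 fell with library totals alone, and 2 rose and 1 fell in a fit of only the 2 lines compared; fewer libraries share the spread in that fit. With the replicate number as a block, 2 members rose and 12 fell in the first comparison, with a median of -0.19, and 0 rose and 0 fell in the second, where 802 genes were called in place of 2135. In the third it gave 4 that rose and 10 that fell in place of 6 and 15, with the calls of Idi1, Fdps, Fdft1, Sqle, Ebp, Dhcr7 and Scap lost. In the first the block ended the calls of Hmgcs1 (log2 change -0.26, adjusted p = 0.187), Sqle (-0.15, 0.48) and Srebf1 (-0.22, 0.181) and added Elovl6 (0.32, 0.0471), and in the second it ended all 6, Sc5d (0.32, 0.15) and Scd2 (-0.59, 0.0922) included. In each comparison the contrast of this block fit added the effect of 1 replicate number to the difference between lines. It therefore did not test the line difference alone, and its lost and gained calls say nothing certain about the lines. Same-numbered libraries correlated in their deviations from line means by -0.02 to 0.28, and differently numbered ones by -0.33 to 0.22, so the numbers were not taken as pairs, and not every library correlated best with its own number. Whether pairing by number would change the calls was not tested, as no block fit tested the line difference alone. Members with few counts, such as Fdps, are the least precise.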
